A study of Homo sapiens with 6 samples.

Results

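The EGR, NR4A, IER and SRF early factors described here are 9 genes, EGR1, EGR2, EGR3, NR4A1, NR4A2, NR4A3, IER2, IER5 and SRF, taken by symbol from the 60604 genes used of the deposited count table. RNA sequencing was done on MIA PaCa-2, an established cell line derived from a human carcinoma of the pancreas. Cells received either 10 mg/ml Huaier, a fungal extract, on top of 12.5 µg/ml BP (BP+Huaier), or 12.5 µg/ml BP alone, where BP is black phosphorus, an allotrope of phosphorus that forms layers. Each group had 3 libraries. Both groups thus carried BP, and untreated cells were not analysed here. The labels give no treatment time and do not state whether replicates were grown as separate cultures, so a p-value here measures library-to-library spread that may be technical.

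The 3 EGR proteins are zinc finger transcription factors, and the NR4A proteins are orphan nuclear receptors that act without a known physiological ligand. SRF, the serum response factor, binds CArG boxes in DNA and, with cofactors of the ternary complex and MRTF families, drives early response genes and genes of the actin cytoskeleton. IER2 and IER5 are small nuclear proteins encoded by immediate early genes. Growth factor signals through the ERK kinases and SRF, or through CREB and MEF2, turn most of these genes on within minutes and without new protein synthesis, and their transcripts are short-lived. They are often used as read-outs of such signals.

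Among these genes, 4 had a promoter window in the RefSeq table (GRCh38.p14) that carried repeated or paired matches to the binding motifs searched, and these windows are shown because they include a gene of the EGR and NR4A families and SRF itself. Each window runs from 250 bases before to 50 bases after an annotated start, 5′ to 3′ on the strand of the gene. Capitals mark CArG boxes, the SRF motif, and TGACG, the core of the CREB motif, on either strand.
EGR1, chr5:138465229-138465528, plus strand: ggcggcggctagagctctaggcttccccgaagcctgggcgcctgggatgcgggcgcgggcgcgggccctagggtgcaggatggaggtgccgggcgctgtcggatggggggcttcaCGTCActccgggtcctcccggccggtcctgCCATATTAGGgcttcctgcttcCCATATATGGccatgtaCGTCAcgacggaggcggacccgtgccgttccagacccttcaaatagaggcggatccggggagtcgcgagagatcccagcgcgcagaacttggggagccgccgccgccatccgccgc
EGR2, chr10:62816317-62816616, minus strand: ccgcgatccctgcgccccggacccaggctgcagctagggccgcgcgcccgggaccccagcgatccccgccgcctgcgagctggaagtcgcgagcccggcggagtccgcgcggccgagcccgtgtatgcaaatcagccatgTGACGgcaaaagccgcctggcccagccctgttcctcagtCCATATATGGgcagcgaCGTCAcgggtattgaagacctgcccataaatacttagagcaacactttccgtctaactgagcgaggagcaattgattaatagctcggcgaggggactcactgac
SRF, chr6:43171019-43171318, plus strand: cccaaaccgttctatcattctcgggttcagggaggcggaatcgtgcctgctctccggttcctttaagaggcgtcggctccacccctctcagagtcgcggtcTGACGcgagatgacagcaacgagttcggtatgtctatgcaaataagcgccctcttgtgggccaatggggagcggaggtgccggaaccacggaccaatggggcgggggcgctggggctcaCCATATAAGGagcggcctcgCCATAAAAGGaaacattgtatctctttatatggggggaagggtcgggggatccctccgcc
NR4A3, chr9:99821635-99821934, plus strand: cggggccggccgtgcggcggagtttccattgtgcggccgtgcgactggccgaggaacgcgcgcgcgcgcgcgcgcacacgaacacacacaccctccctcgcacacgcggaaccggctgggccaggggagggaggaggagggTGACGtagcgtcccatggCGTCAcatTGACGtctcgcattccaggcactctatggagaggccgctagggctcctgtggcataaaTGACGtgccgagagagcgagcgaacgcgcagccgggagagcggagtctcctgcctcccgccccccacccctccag

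Promoter windows were found for 7 of the 9 genes, 11 windows in all, with 3 alternative starts for EGR2 and 2 each for NR4A1 and SRF. The CArG box was present in windows of EGR1, EGR2 and SRF, 3 of the 11, and in 1.29% of all 35116 windows of 300 bases. EGR1 and SRF each held 2 CArG boxes, as did 0.0313% of all windows. In EGR1 their first bases lay 105 and 83 bases before the start, and in SRF 30 and 10 bases before it. TGACG was present in a window of EGR1, EGR2, NR4A3, IER2 and SRF, 5 of the 11, and in 24.6% of all windows. The NR4A3 window held 4 such matches, the EGR1 and EGR2 windows 2 each. The full palindrome TGACGTCA was in none of the 11 windows and in 1.85% of all windows, and AAAGGTCA, the NR4A motif, was in none of them and in 1.22% of all. GCGNGGGCG, the EGR motif, was found in 3 of the 11 windows, of EGR1, EGR2 and SRF, and in 9.43% of all windows. Both strands were searched, and TGACG lies within TGACGTCA. Neither the NR4A1 nor the IER5 windows held a CArG box or TGACG. Only these windows were searched, so a match at another start of NR4A1 or IER5, or further from the start, would be missed. These matches describe the letters and are not measured binding.

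Total counts on genes lay between 15808056 and 16856727 in BP+Huaier libraries and between 15657593 and 17036565 in BP libraries. Values are CPM, counts scaled to library size and by TMM, a normalisation that assumes most genes do not change. Libraries did not vary alike within the groups. BP+Huaier 3 lay at 11.5 on the first principal component (72.4% of the variance), with BP+Huaier 1 and 2 at 65.1 and 66.0 and BP libraries between -50.5 and -43.4. Log2 ratios of each BP+Huaier library to the BP mean correlated with transcript GC content across 14896 genes, which are not independent replicates, at r = 0.40, 0.27 and 0.03 in BP+Huaier 1, 2 and 3, and ratios of BP 2 and 3 to the other BP libraries at -0.45 and 0.43. Of the markers listed for carcinoma cells, KRT8, KRT18, KRT19 and VIM were expressed. KRT7, EPCAM and CDH1 averaged 0.182 CPM or less in each group, at about the value of 3 counts (0.159 to 0.221 CPM). KRT18 and KRT19 were called higher, at 769.9 ± 250.3 and 453 ± 169.7 CPM with Huaier and 449.7 ± 14.03 and 221 ± 11.5 CPM with BP (SD, n = 3 each; edgeR adjusted p = 0.037 and 0.017). KRT8 and VIM did not pass. Both keratin calls were lost without any BP library or BP+Huaier 2, and that of KRT18 also without BP+Huaier 1. The KRT18 call was lost as well with library size alone and at 5 CPM or more (edgeR adjusted p = 0.070 and 0.056). Of 13 markers of immune, endothelial, fibroblast, acinar and islet cells, PTPRC, CD3E, PRSS1, CELA3A, INS and GCG were at 0 counts in every library. The 13 summed to 385 to 488 CPM in BP+Huaier libraries and 501 to 557 CPM in BP libraries, mostly from the collagen gene COL1A2. Of these 13, COL1A1 passed the test as higher, at 5.91 ± 0.647 CPM with Huaier and 1.34 ± 0.101 CPM with BP (SD, n = 3 each). The part of these differences in the results was not tested.

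With Huaier added to BP, transcripts of the early factors were higher in most of the family. NR4A1 rose 18.9-fold, NR4A2 6.41-fold and EGR1 5.28-fold, whereas EGR3, IER5, IER2 and SRF rose between 2.93-fold and 2.27-fold. The filter on low counts kept 7 of the 9 genes, and EGR2 and NR4A3 fell below it. Of the 7, 7 were called higher and 0 lower, against 14.4% and 15% of the 15022 genes tested (quasi-likelihood test of edgeR with Benjamini-Hochberg adjustment, threshold 0.05). NR4A2 passed the filter only through its BP+Huaier libraries, and 6 of the 6 genes with at least 10 counts in every BP library were called. The median log2 fold change of the 7 was 1.55, against -0.02 over all genes tested. In bulk RNA, fewer cells of a kind and less RNA per cell cannot be told apart, so a rise may be in all cells or in some.

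**Figure D1:**
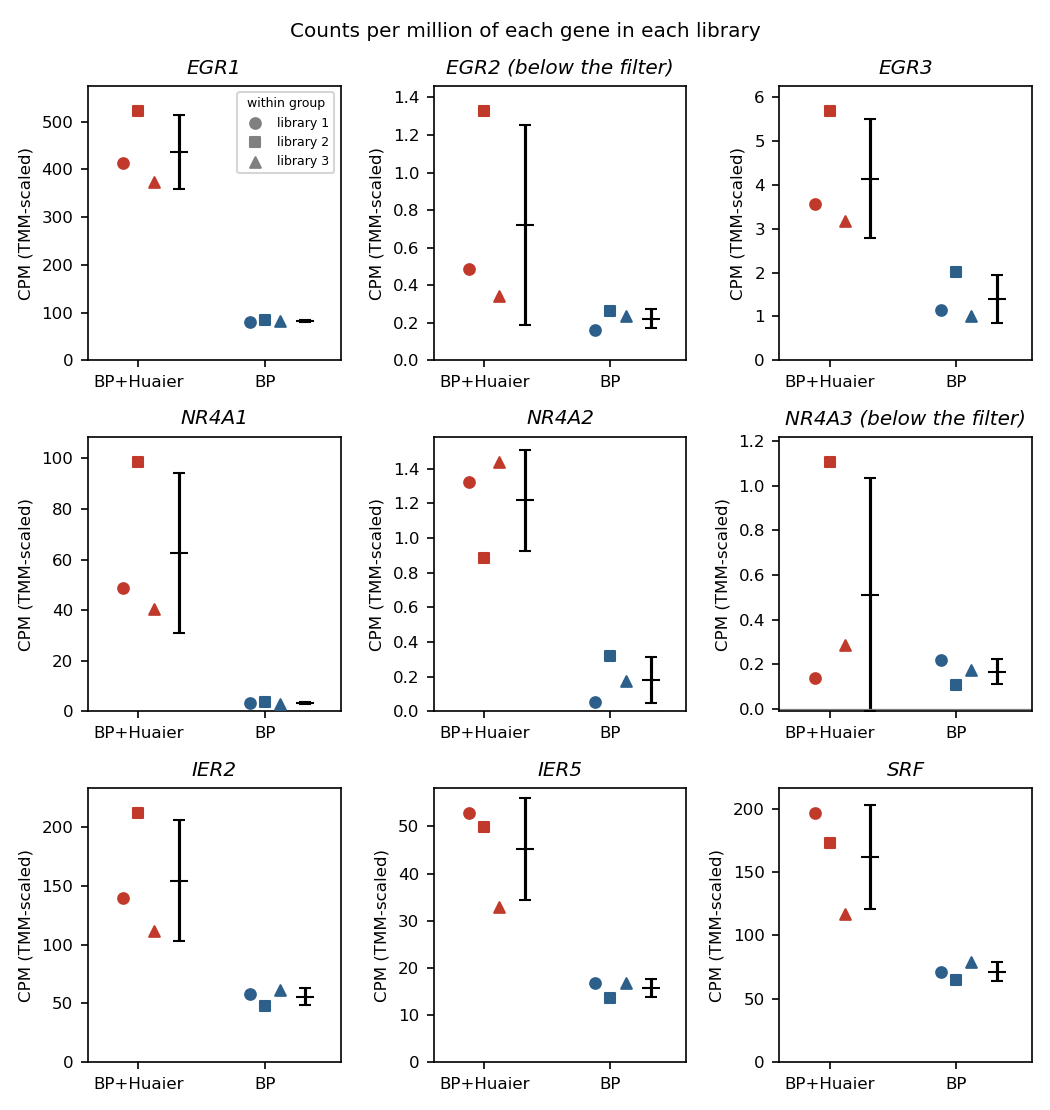
Counts scaled to library size and by TMM (CPM) of the 9 genes in each library, with BP+Huaier on the left and BP on the right of each panel; marker shapes give the library number and the bar beside each group its mean ± SD (n = 3). The groups overlap in NR4A3, and BP+Huaier 2 is the highest library in 6 of the 9 genes.

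EGR1, which also binds its own promoter, was the most abundant of the EGR genes. EGR1 (ENSG00000120738.8, GRCh38 chromosome 5, 138465479 to 138469303, 2 exon blocks) had 414, 522 and 373 CPM in BP+Huaier libraries 1, 2 and 3, against 81.2, 84.0 and 82.7 CPM in BP libraries 1, 2 and 3. The BP libraries were nearly equal, with a coefficient of variation of 1.66%, and every BP+Huaier library lay above them. The log2 fold change was 2.40 ± 0.16 (SE; edgeR adjusted p = 4.2e-04), with a 95% interval of the fold from 4.09 to 6.82. EGR3 (ENSG00000179388.9, chromosome 8, 22687659 to 22693480), a relative of EGR1 studied in lymphocytes and in muscle spindles, had 3.56, 5.68 and 3.16 CPM with Huaier, against 1.15, 2.02 and 1.00 CPM with BP. The groups of EGR3 did not overlap, and BP 2 was the highest BP library. Its log2 fold change was 1.55 ± 0.35 (SE; edgeR adjusted p = 0.013). EGR3 missed the threshold when BP 1, BP 3 or BP+Huaier 2 was left out, with edgeR adjusted p of 0.059, 0.055 and 0.053.

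EGR2 (ENSG00000122877.17, chromosome 10, 62811996 to 62919900), which directs myelination in Schwann cells, was scarce. It had 7, 18 and 6 counts in BP+Huaier libraries 1, 2 and 3 and 3, 5 and 4 counts in BP libraries, or 0.488, 1.33 and 0.345 CPM against 0.164, 0.266 and 0.236 CPM. Every BP+Huaier value was above every BP value, but the size rested on BP+Huaier 2. The ratio of summed counts was 3.08 (95% exact interval 1.54 to 6.59, counting error only) with that library and 1.85 without it. When no filter was applied, EGR2 was not called (log2 fold change 1.66 ± 0.67, SE; edgeR adjusted p = 0.067).

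NR4A1, also called NUR77, changed most. NR4A1 (ENSG00000123358.20, chromosome 12, 52022832 to 52059507) had 48.6, 98.6 and 40.5 CPM in BP+Huaier libraries and 3.29, 3.67 and 2.95 CPM in BP libraries. BP+Huaier 2 stood well above libraries 1 and 3, and all 3 were far above BP. The log2 fold change was 4.24 ± 0.36 (SE; edgeR adjusted p = 6.2e-04), which ranked 3 among the 15022 genes tested. Without BP+Huaier 2 the rise was 13.6-fold. Per kilobase of exon, NR4A1 stood at the 12.1st percentile of tested genes with BP and at the 68.2nd percentile with Huaier added.

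NR4A2 (ENSG00000153234.15, chromosome 2, 156324437 to 156342348), known as NURR1 and needed for dopamine neurons, had 19, 12 and 25 counts with Huaier and 1, 6 and 3 counts with BP. These were 1.33, 0.885 and 1.44 CPM against 0.0548, 0.319 and 0.177 CPM. The groups did not overlap, and BP+Huaier 2, the highest library for NR4A1, was the lowest for NR4A2. The log2 fold change was 2.68 ± 0.53 (SE; edgeR adjusted p = 0.0078), with a 95% interval of the fold from 2.77 to 14.8. Without BP 2 the estimate was 10.1-fold, so the size is uncertain at this depth.

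NR4A3 (ENSG00000119508.18, chromosome 9, 99821855 to 99866891), or NOR1, did not pass the filter. It had 2, 15 and 5 counts with Huaier and 4, 2 and 3 counts with BP. BP+Huaier 1 lay among the BP libraries, and BP+Huaier 2 alone stood clearly above them. The ratio of summed counts was 2.92 (95% exact interval 1.29 to 7.196, counting error only), and 1.32 without BP+Huaier 2. Without a filter it was not called (edgeR adjusted p = 0.17), so a difference in NR4A3 was not detectable at this depth.

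The make-up of the NR4A family differed between the groups in description, but the shares in BP libraries rest on few counts. NR4A2 had 1, 6 and 3 counts and NR4A3 had 4, 2 and 3 counts in BP libraries 1, 2 and 3. The share of NR4A2 alone ran from 2.77% to 13.4% within BP. NR4A1 made up 95.1 ± 2.00% of the summed level per kilobase of NR4A1, NR4A2 and NR4A3 in BP+Huaier libraries and 86.3 ± 3.50% in BP libraries (SD, n = 3 each). The ranges, 93.1% to 97.1% and 83.8% to 90.3%, did not overlap, and the exact two-sided permutation p of 0.10 is the smallest that 3 libraries against 3 allow. EGR1 made up 98.3 ± 0.319% of the summed level of the 4 EGR genes with Huaier and 98.1 ± 0.854% with BP (exact permutation p = 0.90).

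IER2, IER5 and SRF had folds of 2.77, 2.86 and 2.27. IER2 (ENSG00000160888.7, chromosome 19, 13150411 to 13154911), whose product moves to the nucleus after stimulation, had 139.5, 212 and 112 CPM with Huaier and 58.1, 47.6 and 61.1 CPM with BP. Its groups did not overlap, and BP+Huaier 2 was again highest. The log2 fold change was 1.47 ± 0.23 (SE; edgeR adjusted p = 0.0033).

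IER5 (ENSG00000162783.11, chromosome 1, 181088700 to 181092900, a single exon), whose product activates the heat shock factor HSF1 together with the phosphatase PP2A, had 52.9, 49.8 and 32.9 CPM with Huaier and 16.8, 13.7 and 16.9 CPM with BP. BP+Huaier 1 and 2 were close to each other and BP+Huaier 3 was lower, still above every BP library. The log2 fold change was 1.52 ± 0.20 (SE; edgeR adjusted p = 0.0019). SRF (ENSG00000112658.8, chromosome 6, 43171269 to 43181506, 7 exon blocks) had 197, 173 and 117 CPM with Huaier and 71.0, 64.5 and 79.0 CPM with BP. SRF showed the same order of libraries as IER5, without overlap between groups. Its log2 fold change was 1.18 ± 0.20 (SE; edgeR adjusted p = 0.0042).

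The libraries ranked differently from gene to gene. Of the 9 genes, 6 were highest in BP+Huaier 2 (EGR1, EGR2, EGR3, NR4A1, NR4A3 and IER2), 2 in BP+Huaier 1 (IER5 and SRF) and 1 in BP+Huaier 3 (NR4A2). BP+Huaier 3 was lowest of its group for 7 of the 9, the exceptions being NR4A2 and NR4A3. Measured against the BP mean, NR4A1 was 14.7-fold, 29.9-fold and 12.3-fold higher in BP+Huaier 1, 2 and 3, and SRF 2.75-fold, 2.42-fold and 1.63-fold. The values did not overlap between groups for 8 of the 9 genes, namely EGR2 and every early factor tested. Of all tested genes, 21.9% were higher without overlap, a share that leaves out EGR2 and NR4A3, which were not tested. NR4A2 is in the tested set only through its BP+Huaier libraries. Without BP+Huaier 3, NR4A1 was 22.3-fold, EGR1 5.71-fold and SRF 2.60-fold higher. With a trend on GC content and transcript length taken out of each library, the rises stood at 15.4-fold for NR4A1, 4.64-fold for EGR1, 2.17-fold for IER2 and 1.80-fold for SRF. Whether the rises of these genes differ from each other was not tested.

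The count of calls held under most other settings, while the share of all genes called moved widely. Of the early factors, 7 were called higher by DESeq2 (18.4% of all genes tested), limma-voom (14.1%), edgeR with DESeq2 size factors (15.2%), with library size alone (7.02%), without the GC and length trend (19.1%), with the replicate number as a block (9.03%) and with no filter (9.09%, where 9 were tested). Leaving out BP 2, BP+Huaier 1 or BP+Huaier 3 also gave 7 calls, with 5.46%, 11.4% and 28.8% of all genes called. Leaving out BP 1, BP 3 or BP+Huaier 2 gave 6 calls, with 5.27%, 6.61% and 6.08% of all genes called. At an adjusted p under 0.01 there were 6 (5.5% of all genes), and at 5 CPM or more 5 of 5 (14.3%). Except at 5 CPM or more, these counts include NR4A2, which passed the filter of the main fit only through its BP+Huaier libraries.

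**Figure D2:**
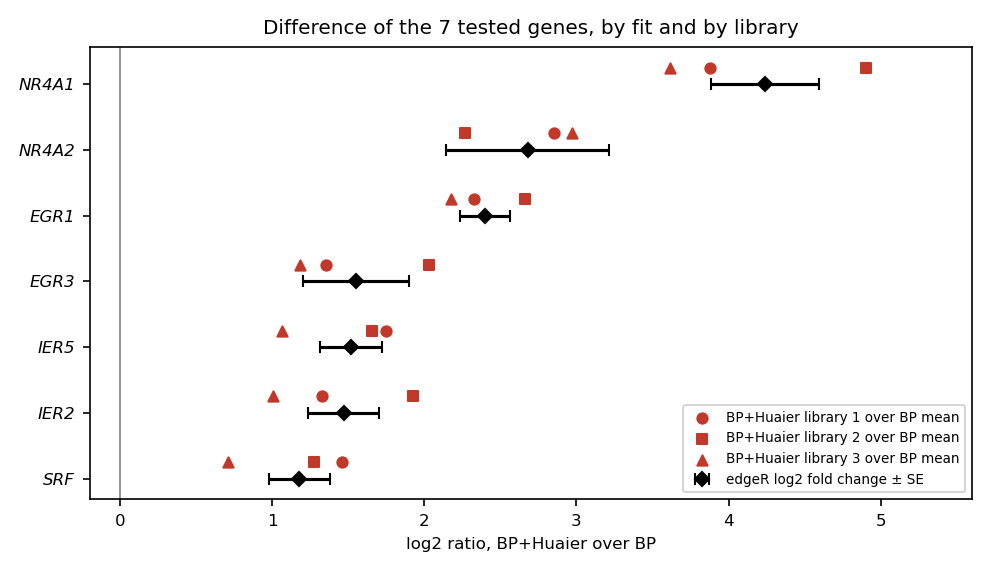
Log2 ratio of BP+Huaier over BP for the 7 genes that passed the filter, on a linear axis; diamonds give the edgeR estimate ± SE and red symbols the ratio of each BP+Huaier library to the mean of the 3 BP libraries. NR4A1 lies furthest right at 4.24 and SRF nearest to 0 at 1.18, and library 3 is the lowest of the 3 symbols except for NR4A2.

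Per kilobase of exon the order of the levels was similar in both groups. With Huaier, EGR1 was highest at 139 ± 24.6 RPKM (SD, n = 3), followed by IER2 at 50.1 ± 16.7, SRF at 38.3 ± 9.67, IER5 at 10.8 ± 2.56 and NR4A1 at 8.58 ± 4.31 RPKM. IER2 and SRF overlapped, as did IER5 and NR4A1. EGR3 (0.821 ± 0.269 RPKM) came next, and NR4A2, EGR2 and NR4A3 averaged 0.307, 0.177 and 0.0810 RPKM, each overlapping its neighbour in the order. With BP, EGR1 was again highest at 26.3 ± 0.436 RPKM, with IER2 at 18.1 ± 2.31 and SRF at 16.9 ± 1.71 RPKM overlapping below it. IER5 stood at 3.75 ± 0.435 RPKM and NR4A1 at 0.452 ± 0.0492 RPKM, without overlap. The lengths are of all annotated exons merged, so levels of genes with many alternative exons, such as NR4A1 with 11 exon blocks, are understated.

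The early factors varied in structure, with IER5 a single exon and NR4A1 11 exon blocks. The 9 gene bodies had a median of 10238 bases and 7 exon blocks, against 32153 bases and 11 blocks over the 12459 protein-coding genes tested. The GC content of the longest coding transcript ranged between 46.9% for NR4A3 and 61.7% for IER2, with a median of 51.9%, against 49.9% over protein-coding genes. TATTTAT, a core of AU-rich decay elements, was present in the 3′ untranslated region of the longest coding transcript of 4 of the 9 genes (NR4A2, NR4A3, IER5 and SRF), a share of 44.4%, against 34.2% of 12441 protein-coding genes. In the deposited exons, IER2 overlapped 2 unnamed genes on the opposite strand over 30.7% and 21.5% of its exon bases, both with 0 counts in every library. NR4A1 shared 10.3% of its exon bases with NR4A1AS, which had at most 5 counts in a library. The strand setting of the counting is not stated in the labels.

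The fourth EGR gene and a corepressor were also called higher, the corepressor NAB2 2.04-fold, against 5.28-fold for EGR1. EGR4 had 61, 55 and 38 counts with Huaier and 6, 15 and 4 counts with BP, or 4.25, 4.06 and 2.19 CPM against 0.329, 0.797 and 0.236 CPM. It rose 7.46-fold (log2 fold change 2.90 ± 0.46, SE; edgeR adjusted p = 0.0035), and without BP 2 the log2 fold change was 3.58. NAB2, an EGR-induced corepressor of EGR proteins, rose to 90.0 ± 25.3 CPM with Huaier, against 44.0 ± 4.69 CPM with BP (SD, n = 3; edgeR adjusted p = 0.0093), a call lost without BP 2 (0.056). NAB1, its constitutive relative, had 37.5 ± 11.4 CPM with Huaier and 42.8 ± 4.40 CPM with BP and did not pass (edgeR adjusted p = 0.52). EGR4 passed the filter through its BP+Huaier libraries, the group where it was high, so its call adds nothing to a count. Of the other 2 genes, NAB2 rose and NAB1 did not pass.

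Of 12 reported EGR1 targets, 5 rose and 2 fell, against 14.4% of all tested genes higher and 15% lower, with a median log2 fold change of 0.52 (all genes -0.02). The growth factor gene PDGFB had 46.7, 56.7 and 34.6 CPM with Huaier and 10.7, 11.6 and 11.5 CPM with BP, a 4.08-fold rise (edgeR adjusted p = 8.9e-04). Its groups were far apart. VEGFA, a growth factor for vessels, rose to 145 ± 57.6 CPM with Huaier, against 54.4 ± 2.66 CPM with BP. PDGFA and TGFB1 also rose, as did NAB2. Both falls, of the adhesion genes FN1 and ICAM1, were of genes that passed the filter through their BP libraries, the group where they were high, with 5, 14 and 8 counts of FN1 in BP+Huaier libraries and 53, 58 and 34 in BP libraries. FN1 and ICAM1 fell, FN1 to 0.614 ± 0.367 CPM with Huaier against 2.66 ± 0.578 CPM with BP, and ICAM1 to 0.1997 ± 0.0698 against 0.936 ± 0.330 CPM. ICAM1 had 4, 2 and 3 counts in the BP+Huaier libraries, and it missed the threshold when BP 1, BP 3 or BP+Huaier 2 was left out (edgeR adjusted p = 0.064, 0.071 and 0.065).

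The cofactors of SRF went different ways. ELK1, a ternary complex factor activated by ERK, had 283, 270 and 167 CPM with Huaier and 112, 99.6 and 119 CPM with BP, a 2.18-fold rise (edgeR adjusted p = 0.0057). ELK3 and ELK4 did not pass, at 57.5 ± 12.1 and 44.7 ± 26.6 CPM with Huaier and 60.4 ± 3.86 and 50.1 ± 3.75 CPM with BP. ELK4 was at 75.2 CPM in BP+Huaier 3 and 26.5 and 32.3 CPM in libraries 1 and 2, and without BP+Huaier 3 it was called 1.69-fold lower (edgeR adjusted p = 1.5e-04). MRTFB, an actin-sensing coactivator, had 5.86, 5.24 and 12.4 CPM with Huaier and 18.0, 15.2 and 16.2 CPM with BP, a 2.08-fold fall (edgeR adjusted p = 0.031). BP+Huaier 3 lay closest to BP, and the MRTFB call was lost without any other library (edgeR adjusted p between 0.069 and 0.11). MRTFA had 38.3 ± 8.90 CPM with Huaier and 33.4 ± 3.31 CPM with BP and did not pass, and MYOCD had 0 counts throughout.

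Of 18 tested genes of the actin cytoskeleton that MRTF and SRF are known to drive, 8 rose and 1 fell, against 14.4% and 15% of all tested genes, with a median log2 fold change of 0.45 (all genes -0.02). FHL2, a LIM domain protein, had 141, 152 and 109 CPM with Huaier and 49.7, 52.0 and 49.2 CPM with BP, a 2.66-fold rise (edgeR adjusted p = 0.0011). ZYX, zyxin of focal adhesions, rose to 417 ± 104 CPM with Huaier against 215 ± 18.6 CPM with BP (edgeR adjusted p = 0.0084), a call lost without BP 2 (0.054). TAGLN fell to 6.99 ± 0.793 CPM with Huaier against 11.3 ± 0.894 CPM with BP (edgeR adjusted p = 0.018), a call lost without any BP library or BP+Huaier 2 (up to 0.092) and with the replicate block (0.052). ACTB, at 10788 ± 2411 CPM with Huaier and 7919 ± 281 CPM with BP, did not pass (edgeR adjusted p = 0.12). The number of rises rested on single libraries. Without BP 1, 2 and 3 it was 2, 1 and 3, where 5.27%, 5.46% and 6.61% of all genes were called higher. Without BP+Huaier 1, 2 and 3 it was 5, 2 and 13, where 11.4%, 6.08% and 28.8% of all genes were. With the replicate block it was 4 (9.03% of all genes), and with library size alone 5 (7.02%).

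Among 11 tested regulators of the CREB and MEF2 routes 4 rose and 0 fell, against 14.4% and 15% of all tested genes, with a median log2 fold change of 0.21 (all genes -0.02). SIK1, a kinase induced by CREB that restrains its coactivators, had 33.2, 55.3 and 31.4 CPM with Huaier and 9.32, 11.95 and 8.43 CPM with BP, a 4.03-fold rise (edgeR adjusted p = 0.0016). MEF2D, a factor that binds the NR4A1 promoter in T cells, had 193, 273 and 189 CPM with Huaier and 63.8, 66.6 and 71.4 CPM with BP, a 3.25-fold rise (edgeR adjusted p = 8.9e-04). The CREB coactivator gene CRTC2 rose to 128.5 ± 10.2 CPM with Huaier against 63.7 ± 5.56 CPM with BP, and CREM to 20.8 ± 0.800 against 14.1 ± 0.589 CPM. The CREM call was lost without any BP library or BP+Huaier 2 (edgeR adjusted p up to 0.10), with the replicate block (0.063) and with library size alone (0.16). CREB1 itself had 20.6 ± 2.68 CPM with Huaier and 23.3 ± 4.34 CPM with BP and did not pass. The RXR genes, which encode partners of NR4A1 and NR4A2, were not called, with RXRA at 121 ± 27.9 and 122 ± 9.90 CPM, RXRB at 71.6 ± 12.4 and 51.7 ± 5.15 CPM (BP+Huaier and BP, SD, n = 3 each; edgeR adjusted p = 0.95 and 0.057) and RXRG at 0 counts. By DESeq2, by edgeR without a filter on low counts and without BP+Huaier 3, RXRB was called higher (adjusted p = 0.028, 0.028 and 6.8e-04). With the GC and length trend taken out, RXRA was called lower by 0.40 on the log2 scale.

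Of 12 kinases between RAF and the RSK and MSK enzymes, 4 rose and 0 fell, against 14.4% and 15% of all tested genes, with a median log2 fold change of 0.47 (all genes -0.02). MAP2K1, the ERK kinase MEK1, rose to 63.7 ± 10.7 CPM with Huaier against 37.9 ± 3.27 CPM with BP (edgeR adjusted p = 0.011). RPS6KA2 rose to 5.79 ± 1.81 CPM against 3.37 ± 0.161 CPM (edgeR adjusted p = 0.048), and MAP2K2 and MAPK3 were the other 2. Without BP 2, BP 3 or BP+Huaier 2, 0 of these kinases were called higher by edgeR, where 5.46%, 6.61% and 6.08% of all genes were. Without BP 1 or BP+Huaier 1 a single kinase was (5.27% and 11.4% of all genes), and without BP+Huaier 3, 7 rose and 1 fell (28.8% of all genes higher). RNA of a kinase gene does not report its activity.

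Of 6 relatives of the IER genes and partners of IER5, 4 rose and 0 fell, against 14.4% and 15% of all tested genes, with a median log2 fold change of 0.49 (all genes -0.02). There were 2 rises when BP 1, 2 or 3 or BP+Huaier 2 was left out, where 5.27%, 5.46%, 6.61% and 6.08% of all genes were called higher. IER3 had 117, 223 and 73.5 CPM with Huaier and 29.6, 32.4 and 30.0 CPM with BP, a 4.49-fold rise (edgeR adjusted p = 0.0035). IER5L, the closest relative of IER5, had 338, 514 and 137 CPM with Huaier and 64.5, 67.3 and 61.4 CPM with BP, a 5.12-fold rise (edgeR adjusted p = 0.0041). Both were highest in BP+Huaier 2 and lowest in BP+Huaier 3, and neither overlapped BP. HSF1 rose to 191 ± 35.1 CPM with Huaier against 131 ± 13.6 CPM with BP (edgeR adjusted p = 0.040), a call lost without each library other than BP+Huaier 3 (up to 0.16). The HSF1 call was also lost with the GC and length trend taken out (edgeR adjusted p = 0.15), with library size alone (0.12) and at 5 CPM or more (0.061). PPP2R2A, the regulatory subunit of PP2A that binds IER5, rose to 124 ± 14.9 against 91.6 ± 6.44 CPM (edgeR adjusted p = 0.047), and PPP2R2A missed the threshold when any BP library or BP+Huaier 2 was left out (up to 0.16). It also missed the threshold with library size alone (edgeR adjusted p = 0.43) and at 5 CPM or more (0.099). PPP2CA and PPP2R1A, at 154 ± 18.9 and 837 ± 205 CPM with Huaier and 163 ± 18.7 and 616 ± 38.7 CPM with BP, did not pass.

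**Figure D3:**
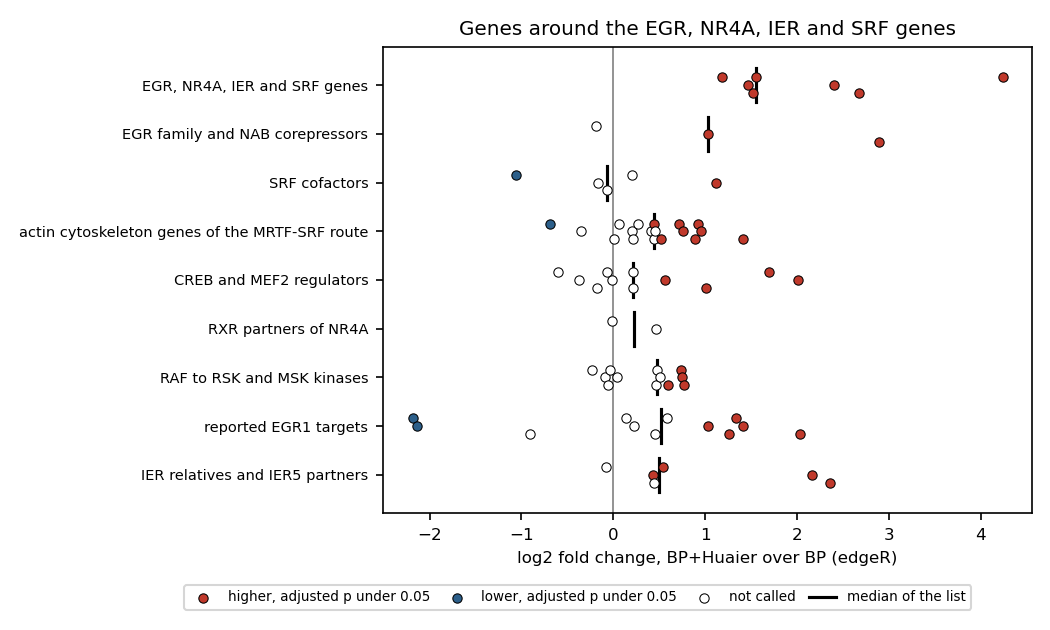
Log2 fold change of BP+Huaier over BP (edgeR) for the tested early factors and the tested genes of 8 lists around them; each point is a gene, filled where its adjusted p is under 0.05, and the vertical bar is the median of the list. The early factors lie between 1.18 and 4.24, and the SRF cofactors have members on both sides of 0.

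Genes beside the early factors were mostly not called. Of 28 tested genes within 100 kb of one of the 9, 3 rose, 3 fell and 22 were not called, against 14.4% of all tested genes higher and 15% lower. Their median log2 fold change was 0.26, against -0.02 over all genes tested. The rises were ATG101, 9739 bases from NR4A1 (log2 fold change 1.43), and NACC1 and LYL1 near IER2 (0.71 and 0.86). Their edgeR adjusted p were 0.0034, 0.032 and 0.049. LYL1 was the only called neighbour whose groups overlapped, with BP+Huaier 3 at 6.44 CPM and BP 3 at 6.54 CPM. CACNA1A near IER2, MR1 near IER5 and C8orf58 near EGR3 fell by 1.20, 0.83 and 0.95 on the log2 scale. KDM3B, REEP2, ETF1 and HSPA9 near EGR1 were not called, nor were KLC4, PTK7, CUL9 and DNPH1 near SRF. STX10, 28 bases from IER2, was higher by 0.52 on the log2 scale without passing (edgeR adjusted p = 0.084).

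**Figure D4:**
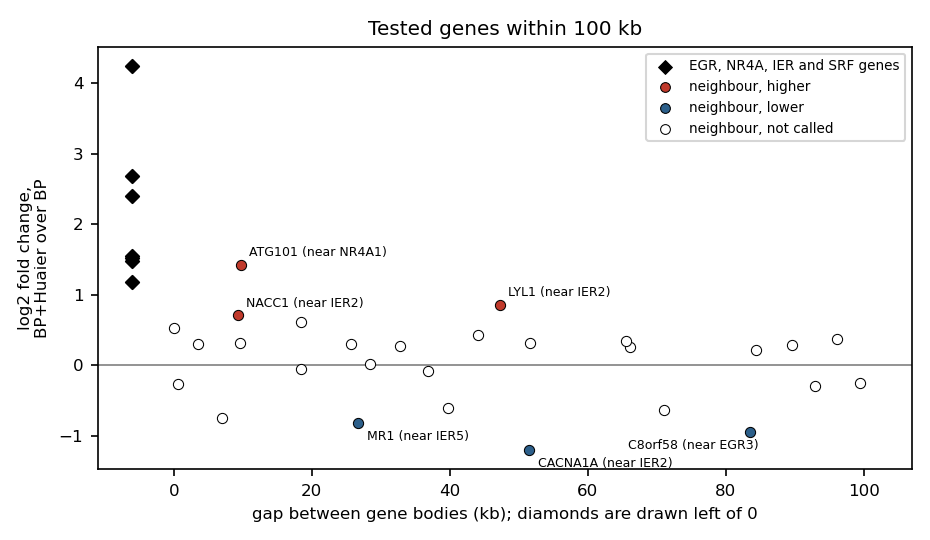
Log2 fold change of BP+Huaier over BP for the 28 tested genes within 100 kb of an early factor, against the gap between the gene bodies in kb; filled circles passed the test and diamonds, drawn left of 0, are the 7 tested early factors. The 6 called neighbours lie on both sides of 0, between -1.20 and 1.43.

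Across the 6 libraries, protein-coding genes whose log2 CPM was among the most like the mean standardised log2 CPM of the 7 tested early factors were PDGFB, CISH, PPP1R16B and FDFT1, with Pearson r between 0.9990 and 0.9997 over 12447 genes compared. With 2 groups that stand apart, a high r mostly reflects the difference between groups. CISH, a feedback inhibitor of cytokine signals, had 5.44, 6.42 and 4.03 CPM with Huaier and 0.768, 0.903 and 0.825 CPM with BP. In each of these 4, BP+Huaier 2 was highest and BP+Huaier 3 lowest of its group. The mean pattern used to pick them, which includes EGR1 and NR4A1, has the same order. The shared order thus follows from the choice of genes and is not a separate result.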

How the data were processed

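RNA of MIA PaCa-2 cells was extracted with TRIzol, made into NEBNext Ultra libraries and read as 150 bp pairs, per the labels' protocols. Per the submitters' processing notes, the authors used fastp 0.20.0, HISAT2 2.1.0 and featureCounts 1.6.1 on GRCh38; annotation release and strand, multi-mapping and overlap settings were not given. The deposited files hold raw whole-number counts per gene, with merged exon lengths. Of 60648 genes, 44 second copies of pseudoautosomal genes with 0 counts were left out. The 3 pieces of 1 broken line (ANK2) were not used. Symbols came from a table that matched 99.77% of IDs, and biotypes and transcripts from GENCODE release 29.

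Genes passing filterByExpr of edgeR 4.0.16 (R 4.3.3; minimum count 10) were scaled by TMM and compared with the robust quasi-likelihood test on group alone. Standard errors are those implied by the test. CPM and RPKM were computed from the deposited counts. The fit was checked on simulated data first. Alternatives were DESeq2 1.42.0 and its size factors, limma-voom (limma 3.58.1), library size alone, no filter, at least 5 CPM, a block for replicate number, leave-one-out fits, adjusted p under 0.01 and, chosen after seeing the data, splines on GC content and length taken out per library. Plots used matplotlib 3.10.9 (Python 3.11.15).

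The 9 genes and the lists around them were chosen with earlier results of these data known. All 9 are named, with all genes of lists of 6 or fewer, the 2 largest called rises and falls of longer lists, called genes within 100 kb and the 5 genes most like the early factors, of which 1 is not reported here. Other named genes were chosen after their values were seen. The exact intervals of EGR2 and NR4A3 cover counting error only; those of fitted folds include the spread between libraries.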

Additional observations from a re-analysis of the deposited data

How the results depend on the processing

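Between 5 and 7 of the early factors were called higher and 0 lower under each setting tried; 5 were called at 5 CPM or more, where 5 remained in the test, and 6 at an adjusted p under 0.01, where EGR3 was not called. Leaving out a library gave 6 or 7 calls, each time with NR4A2, which passed the filter of the main fit only through its BP+Huaier libraries. None reversed in direction. With library size alone the median of all genes stood at -0.28 (log2), against -0.02 with TMM, and EGR1 to 4.37-fold, SRF to 1.86-fold. Of the genes in the 10 surrounding lists, which include those of cell type markers, 30 were called higher and 4 lower. The lists held 3, 5, 18, 11, 2, 12, 12, 6, 4 and 3 tested genes, with NAB2 both a corepressor and an EGR1 target. EGR4 is among these rises and FN1 and ICAM1 among the falls, and each passed the filter through the group where it was high. Over all genes tested, 14.4% were higher and 15% lower. Under other settings the share of all genes called lower was not computed. With the replicate number as a block, 19 genes of the lists were higher (9.03% of all genes) and 3 lower, and 7 early factors were called. Numbers need not pair the libraries, since the deviations of same-numbered libraries correlated at 0.01, -0.06 and -0.28. At an adjusted p under 0.01 there were 15 genes of the lists higher (5.5% of all genes) and 1 lower. With at least 5 CPM, 2 were lower, and after removal of the GC and length trend, 8. Leaving out 1 library gave 13 to 43 higher and 1 to 10 lower. Rises were fewest without BP 2 and most without BP+Huaier 3, where 5.46% and 28.8% of all genes were called higher. The cause of these changes was not tested. Counts of 25 or fewer per library limit EGR2, NR4A2 and NR4A3.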
